A study of Mus musculus with 23 samples.

Results

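The BCL2 family holds the proteins that decide whether the mitochondrial outer membrane is opened during apoptosis. The 10 genes described here are 4 pro-survival members (Bcl2, Bcl2l1, Mcl1 and Bcl2a1b) and 6 pro-death members (Bcl2l11, Bid, Bad, Bmf, Pmaip1 and Bak1). They are a list of family genes taken by symbol, and all 10 were found among the 47729 gene identifiers counted and passed the filter on low counts that left 19597 genes for testing. The question was how these genes are expressed in the subsets of splenic dendritic cells (DCs) and whether they differ in mice labelled TLI.

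RNA was sequenced from DCs sorted from the spleens of wild type BALB/c mice, in pools of mice that were either untreated or carried the treatment label TLI, which the labels do not spell out. Each pool was sorted into DC1a (CD8hi CD172-), DC1b (CD8Int CD172+), DC2 (CD8lo CD172hi) and DC3 (CD8- CD172lo) cells. Untreated mice gave 2 libraries of each subset, and TLI mice gave 4 of DC1a, DC1b and DC3 and 3 of DC2, 23 in all. The ages and sexes of the wild type BALB/c mice of these libraries are not stated separately in the sources used here. By the labels, all 8 untreated libraries and 7 TLI libraries belong to batch 1 and the other 8 TLI libraries to batch 2, so the batch difference was estimated from TLI libraries alone.

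In the intrinsic pathway of apoptosis, Bcl2, Bcl2l1 (BCL-XL), Mcl1 and the A1 proteins bind and hold back their pro-death relatives. Bak1 and Bax form the pores that release cytochrome c. The BH3-only proteins, here Bcl2l11 (BIM), Bid, Bad, Bmf and Pmaip1 (NOXA), either activate the pore formers or occupy the groove of the pro-survival proteins, and each has its own partners: NOXA binds mainly MCL1 and A1, and BAD binds mainly BCL2 and BCL-XL. DCs are short-lived cells, and BIM and BCL2 are known to set their lifespan in opposite directions.

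The mouse has several near-identical copies of the A1 gene, and Bcl2a1b is read below with that limit. Bcl2a1b (ENSMUSG00000089929) lies on the plus strand of chr9:89199209-89207827 in assembly GRCm38. Its spliced transcript was 98.2% identical to that of Bcl2a1a and 99.1% identical to that of Bcl2a1d. Reads were 76 bases long, and 67.9% of the 742 windows of 76 bases in the Bcl2a1b transcript occurred exactly in another gene. The counts of the copies moved together, but with shared windows they are not separate measures of each copy, and shared regulation was not tested. The bases upstream of the 3 copies with the highest levels are shown, and they are nearly as alike as the transcripts. Each is written 5′ to 3′ on the strand of its gene from the RefSeq promoter table of GRCm38.p6, ends just before the annotated start of the transcript in GENCODE, and has the letters GAGGAAGT in capitals.
Bcl2a1b, chr9:89199023-89199208, plus strand: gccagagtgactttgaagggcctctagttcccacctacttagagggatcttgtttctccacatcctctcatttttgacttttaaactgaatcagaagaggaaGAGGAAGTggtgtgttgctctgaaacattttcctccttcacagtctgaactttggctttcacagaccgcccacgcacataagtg
Bcl2a1a, chr9:88956670-88956899, plus strand: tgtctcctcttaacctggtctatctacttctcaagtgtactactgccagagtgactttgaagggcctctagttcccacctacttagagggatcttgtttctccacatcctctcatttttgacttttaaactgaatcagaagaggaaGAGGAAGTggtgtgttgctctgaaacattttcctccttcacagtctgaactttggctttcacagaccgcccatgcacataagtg
Bcl2a1d, chr9:88731915-88732100, minus strand: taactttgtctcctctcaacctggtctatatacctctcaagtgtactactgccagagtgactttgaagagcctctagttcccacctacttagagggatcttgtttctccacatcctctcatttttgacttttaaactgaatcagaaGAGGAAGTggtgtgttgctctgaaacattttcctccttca

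The promoter windows reach from 250 bases before to 50 after the RefSeq start, which is placed differently in each copy. Over the 256 columns that aligned, the Bcl2a1b window was 99.2% identical to that of Bcl2a1a and 96.5% identical to that of Bcl2a1d. GAGGAAGT, which holds the core letters bound by ETS factors such as PU.1, was searched on both strands and occurred 1 time in the window of each copy. It occurred in 3.2% of all 32851 promoter windows, among them 1 of Bad and 1 of Bak1. The NF-kB consensus, also searched on both strands, had 0 matches in the windows of the 4 Bcl2a1 copies. It had at least 1 match in 8.46% of all windows, among them 1 of Bcl2l1 and 1 of Bmf. A match is a run of letters and was not tested as a binding site.

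Values are CPM, the share of a library's counts on a common scale, with library sizes scaled by TMM, and levels are compared between genes only as CPM per kb of exon. Libraries held 19256447 to 36997890 counts. RNA of genes used as markers of other cell types was found in some libraries. Summed over 6 plasmacytoid DC markers, the untreated DC1b libraries held 3418 and 5001 CPM against 53.5 to 221 in the other untreated libraries and 68.6 to 159 in TLI DC1b. All 6 markers exceeded 3 counts there. Ly6d is among these markers, and the paper reported its protein, Ly6-D, as increased on DC1b against DC2 cells. Summed over 9 neutrophil markers, TLI DC1b held 1445 to 23408 CPM and TLI DC2 100 to 2152, against at most 17.1 in untreated libraries. Over 8 monocyte and macrophage markers TLI DC1b held 8312 to 25133 CPM against 2972 and 5006 in untreated DC1b, and TLI DC2 5270 to 11663 against 4723 and 5262. Over 6 erythroid markers the 7 TLI libraries of batch 1 held 13508 to 100292 CPM, against 128 to 5497 in batch 2 and 33.3 to 1489 in untreated mice. Igkc, an immunoglobulin light chain gene of B cells and plasma cells, was at 18385 and 31811 CPM in untreated DC3 and at 8954 to 54945 in TLI DC3. TLI DC1b held 5753 to 44158 CPM of Igkc against 2368 and 5074 in untreated DC1b. The B cell gene Ms4a1 was at or below 3 counts in both untreated DC3 libraries. Over 6 NK cell markers TLI DC3 held 28.9 to 2723 CPM and untreated DC3 105 and 224, against 2.14 to 7.29 in the other untreated libraries. Ncr1, among them, was at 1152, 328, 0 and 0 CPM in TLI DC3 pools 1 to 4. The Bcl2a1b levels of these pools are given below, with pool 1 the highest, and a link with Ncr1 was not tested. Whether other cell types had a part in the DC1b, DC3 and TLI values was not tested. In bulk samples fewer cells of a type and less RNA per cell cannot be told apart. The cDC1 markers Xcr1, Clec9a and 6 others summed to 2633 to 4752 CPM in DC1a, 1363 to 2245 in DC3, 690 to 1684 in DC1b and 130 to 282 in DC2, and all 8 exceeded 3 counts in each group. The 7 cDC2 markers summed to 658 to 819 CPM in untreated DC2 and 152 to 619 in TLI DC2, against 10.3 to 19.0 in untreated DC1a. They summed to 224 and 315 CPM in untreated DC1b and to 54.2 to 254 in TLI DC1b, which overlapped TLI DC2. DC3 held 60.5 and 93.7 CPM in untreated and 17.8 to 42.6 in TLI mice, and TLI DC1a 12.2 to 21.7. Esam, a cDC2 marker, was at or below 3 counts in all TLI DC2 libraries.

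Per kb, the order of the 10 genes by their median over the 23 libraries ran from Bcl2a1b (905 CPM per kb), Pmaip1 (95.7) and Mcl1 (77.6) through Bid (11.7), Bad (6.1), Bcl2l11 (2.99) and Bcl2 (2.4) to Bak1 (1.32), Bmf (1.18) and Bcl2l1 (0.54). The 4 Bcl2a1 copies together made up 86.0 to 99.2% of the summed CPM per kb of the pro-survival genes (the copies, Mcl1, Bcl2 and Bcl2l1) in every library. The paper's methods name uniquely mapped reads, and how reads shared by the copies entered this sum was not tested. NOXA was the most abundant of the 6 pro-death transcripts per kb by this median. Bax, the partner of Bak1 that is not among the 10 genes, had a median of 61.2 CPM per kb.

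Of the pro-survival genes, Bcl2a1b separated DC3 from the other subsets. In untreated mice it stood at 1060 and 1117 CPM in DC1a, 541 and 553 in DC1b, 1309 and 1403 in DC2, and 143 and 167 in DC3. In TLI mice it was 565, 555, 1505 and 1436 CPM in DC1a pools 1 to 4, 871, 529, 1165 and 1155 in DC1b pools 1 to 4, and 787, 851 and 739 in DC2 pools 1, 3 and 4. TLI DC3 held 319, 126, 114 and 117 CPM in pools 1 to 4. All 6 DC3 libraries lay below all 17 libraries of the other subsets.

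Among the 10 genes, 1 differed among the 4 untreated subsets at an adjusted p under 0.05, against 2.37% of all genes tested, and this was Bcl2a1b (edgeR quasi-likelihood test, adjusted p = 0.0155). In the untreated pairs, Bcl2a1b was 7.03-fold lower in DC3 than in DC1a (log2 difference -2.81, SE 0.55, adjusted p = 0.045), a pair in which 0.0561% of all genes were called lower. It was 8.76-fold lower in DC3 than in DC2 (-3.13, SE 0.55, adjusted p = 0.00936), where 0.459% of all genes were called lower. Against DC1b the difference of -1.82 (SE 0.53) did not pass after adjustment (adjusted p = 0.243). The call of DC3 against DC1a lay close to the threshold. It was lost with pool as a block (adjusted p = 0.0543), with DESeq2's size factors (0.0519), without the batch term (0.0765) and when any untreated library, any TLI DC1b or DC2 library, TLI DC1a pool 4 or TLI DC3 pool 2 was left out (adjusted p = 0.0529 to 0.393), while the log2 difference stayed between -2.93 and -2.71. Without either untreated DC3 library, 0 members were called among the untreated subsets.

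In TLI mice 2 of the 10 genes differed among subsets, Bcl2a1b (adjusted p = 0.005) and Mcl1 (adjusted p = 0.0195), against 3.22% of all genes. Bcl2a1b was 5.51-fold lower in TLI DC3 than in TLI DC1a (95% confidence interval 3.1 to 9.8, adjusted p = 0.00332), 5.17-fold lower than in TLI DC1b (adjusted p = 0.004) and 4.36-fold lower than in TLI DC2 (adjusted p = 0.00952). The shares of all genes called lower in these pairs were 0.367%, 0.97% and 0.929%. In the libraries of batch 1 alone these differences were -1.26, -1.66 and -1.83 and none passed (adjusted p = 0.794, 0.328 and 0.277). The call against DC2 was also lost without TLI DC2 pool 1 (adjusted p = 0.0755) and with the TLI libraries alone (adjusted p = 0.0513). In batch 1, TLI DC3 pool 1 had the highest Bcl2a1b level of any DC3 library, and TLI DC2 had 1 library.

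By mean CPM the other copies were also lowest in DC3 in both treatments. Over the 23 libraries the shares of the summed CPM were 15.7 to 36.1% for Bcl2a1b, 24.5 to 34.4% for Bcl2a1a, 35.9 to 55.6% for Bcl2a1d and at most 0.251% for Bcl2a1c. Their sum averaged 843 ± 3.15 CPM (SD, n = 2) in untreated DC3 and 832 ± 259 (n = 4) in TLI DC3. In the other groups the sum averaged 1744 to 3969 CPM. When the 4 copies were counted as 1 gene, the fold was smaller but the calls stayed. The log2 difference of DC3 from DC1a was -2.24 in untreated mice (adjusted p = 0.0271) and -1.99 in TLI mice (adjusted p = 0.00163). From DC2 it was -2.19 in untreated mice (adjusted p = 0.0131), against -3.13 for Bcl2a1b alone, and -1.51 in TLI mice (adjusted p = 0.0144), against -2.12. Gm29094, an annotated gene that shares 401 exon bases and the strand with Bcl2a1b, was counted at 0.32 to 3.34% of the Bcl2a1b count.

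**Figure D1:**
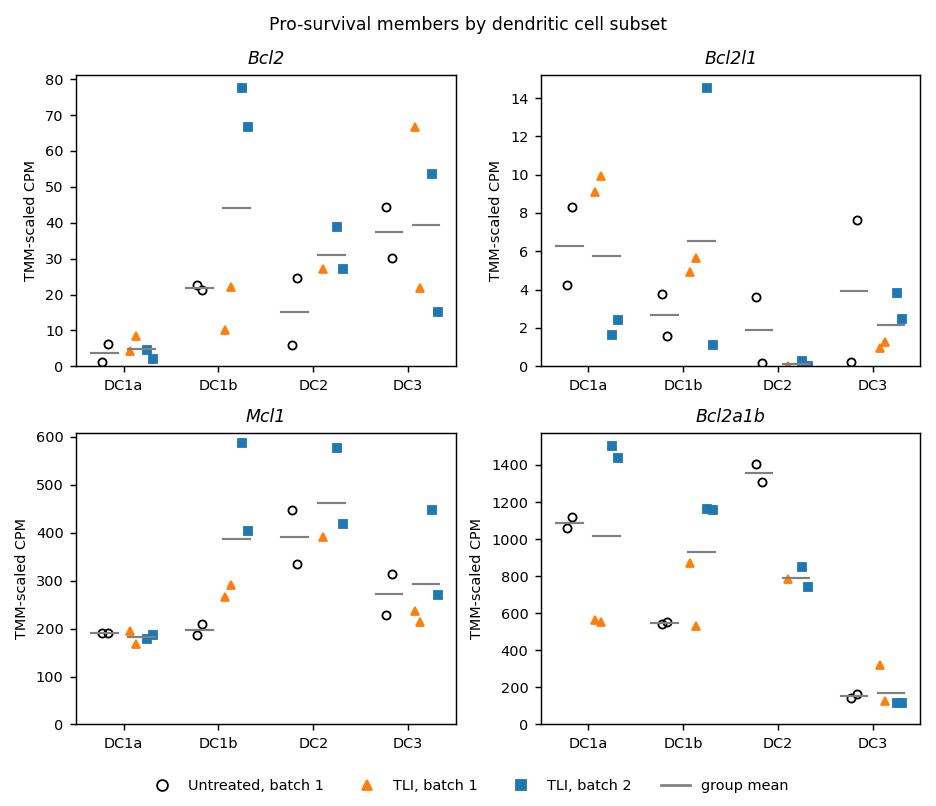
TMM-scaled CPM of the 4 pro-survival members in each library, by subset. Open circles are untreated libraries, triangles TLI libraries of batch 1, squares TLI libraries of batch 2, and bars group means. Bcl2a1b lies at 114 to 319 CPM in DC3 and at 529 CPM or more elsewhere, and Bcl2 lies below 10 CPM in all 6 DC1a libraries.

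Mcl1, whose short-lived protein restrains BAK and which also binds NOXA and BIM, varied less between libraries than the other pro-survival genes, from 167 to 588 CPM, and ran lowest in DC1a. Its levels in TLI DC1a were 195, 167, 178 and 187 CPM in pools 1 to 4, and in untreated DC1a 192 and 191. TLI DC2 held 391, 576 and 419 CPM and TLI DC1b 265, 291, 588 and 405, so neither group overlapped with TLI DC1a. Mcl1 was 2.36-fold higher in TLI DC2 than in TLI DC1a (95% confidence interval 1.67 to 3.34, adjusted p = 0.00602), where 2.1% of all genes were called higher. It was 2.03-fold higher in TLI DC1b than in TLI DC1a (1.47 to 2.81, adjusted p = 0.024), where 1.22% of all genes were called higher.

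In untreated mice the 448 and 335 CPM of DC2 also stood above DC1a, by 2.04-fold, but not past adjustment (adjusted p = 0.117). Untreated DC1b, at 186 and 210 CPM, was level with DC1a within the error (log2 difference 0.05, 95% confidence interval -0.61 to 0.7). Within batch 1 the TLI differences of Mcl1 were 1.18 for DC2 and 0.68 for DC1b on the log2 scale and did not pass (adjusted p = 0.223 and 0.611). The call of DC1b against DC1a was also lost without TLI DC1b pool 3, the library with the highest Mcl1 level, and without TLI DC1a pool 2, 3 or 4 (adjusted p = 0.0556 to 0.119). It was lost as well with the TLI libraries alone, with no batch term and with no filter (adjusted p = 0.0513, 0.105 and 0.0665).

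Bcl2, the founding pro-survival member, was lowest in DC1a in both treatments. It stood at 1.26 and 6.12 CPM in untreated DC1a and at 1.97 to 8.57 CPM in the 4 TLI DC1a libraries. The other subsets held 21.1 and 22.5 CPM (DC1b), 6.04 and 24.5 (DC2) and 30.3 and 44.3 (DC3) in untreated mice. In TLI mice they held 10.1 to 77.5 CPM in DC1b, 27.0 to 38.8 in DC2 and 15.2 to 66.7 in DC3. Among TLI libraries each of these 3 subsets lay wholly above DC1a. The fitted TLI differences from DC1a were 3.07 (SE 0.79) for DC1b, 2.6 (SE 0.79) for DC2 and 3.0 (SE 0.75) for DC3 on the log2 scale, and none passed after adjustment (adjusted p = 0.0671, 0.0858 and 0.0905). Exons of Bcl2 overlap the antisense gene D630008O14Rik by 558 bases, and the sources used here do not say whether counting used the strand.

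Bcl2l1 had the lowest median level per kb of the 10 genes. It ranged from 0 to 14.5 CPM over the libraries and was at or below 3 counts in 2 of 23, both TLI DC2. The 3 TLI DC2 libraries held 0, 10 and 0 counts, while untreated DC2 held 95 and 4 counts. TLI DC1a held 1.61 to 9.91 CPM and TLI DC1b 1.09 to 14.5 CPM, above all 3 TLI DC2 libraries. The 2 differences had unadjusted p = 0.00502 and 0.00371 in edgeR's test and did not pass (adjusted p = 0.0927 and 0.263).

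The level of the Bcl2a1 copies relative to Mcl1, both per kb, was highest in DC1a and lowest in DC3 in both treatments. It averaged 84.9 ± 1.84 (SD, n = 2) in untreated DC1a, 36.1 ± 0.485 in DC1b, 40.7 ± 5.23 in DC2 and 13.0 ± 2.93 in DC3. In TLI mice it averaged 82.4 ± 43.8 (n = 4) in DC1a, 36.7 ± 11.1 in DC1b, 23.3 ± 3.15 (n = 3) in DC2 and 12.8 ± 6.07 in DC3. All 6 DC1a ratios lay above all 6 DC3 ratios. TLI DC1a fell into batch 1 at 41.6 and 48.3 and batch 2 at 127 and 113, on either side of the untreated 83.6 and 86.2.

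**Figure D2:**
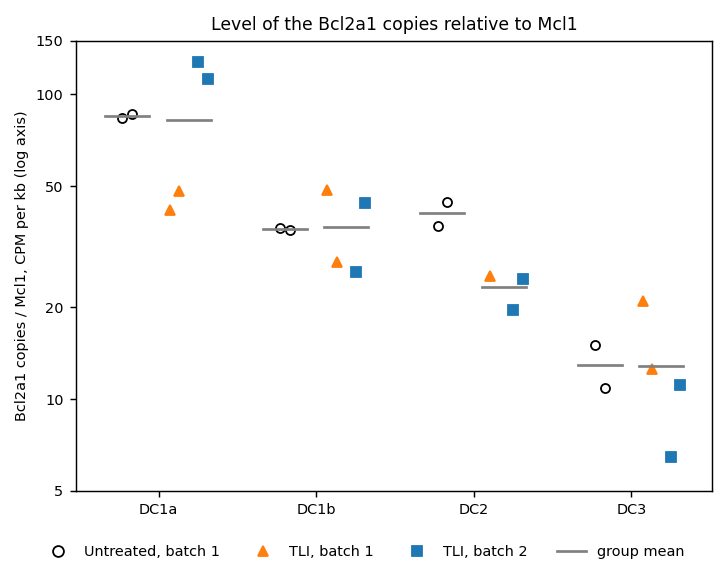
Ratio of the summed Bcl2a1 copies to Mcl1, both in CPM per kb, for each library on a log axis. Open circles are untreated libraries, triangles TLI batch 1, squares TLI batch 2, and bars group means. The ratio lies at 6.46 to 21.0 in DC3 and at 41.6 to 127 in DC1a.

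The pro-death genes gave 0 calls among the subsets in either treatment, and Bid came nearest in the TLI subsets (edgeR quasi-likelihood test, adjusted p = 0.164). BID, which caspase-8 cleaves to link death receptors to mitochondria, stood at 105, 145, 59.9 and 41.5 CPM in TLI DC1a pools 1 to 4. It stood at 41.4, 112, 88.4 and 91.1 in TLI DC3, 54.6, 53.4, 33.0 and 22.4 in TLI DC1b, and 65.0, 33.0 and 16.1 in TLI DC2 pools 1, 3 and 4. TLI DC3 and DC1a thus ran above DC1b and DC2 on average, with overlap between libraries.

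Pmaip1 (NOXA), a p53 target in many cells, lay between 89.7 and 1038 CPM. Untreated DC2 was highest among the untreated groups with 535 and 614 CPM, against 267 and 358 in DC1a, 187 and 193 in DC1b and 219 and 214 in DC3. Its difference between untreated DC3 and DC2 was -1.41 (SE 0.65) and did not pass (adjusted p = 0.428). In TLI DC1a the levels were 533 and 1038 CPM in batch 1 and 216 and 197 in batch 2. No sequence of Pmaip1 is shown, and no other gene overlaps it in the annotation.

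Bcl2l11 (BIM), the BH3-only protein best known for limiting DC lifespan, stood at 18.2 and 28.3 CPM in untreated DC1a, 30.9 and 93.6 in DC1b, 24.0 and 34.8 in DC2, and 20.3 and 36.4 in DC3. In TLI mice it ranged from 6.5 to 14.2 CPM in DC1a, 3.43 to 40.5 in DC1b, 11.5 to 24.9 in DC2 and 13.7 to 64.6 in DC3. The untreated groups overlapped, except that both DC1b libraries lay above both DC1a libraries. Bmf, which senses cytoskeletal stress, ranged from 0.442 to 23.5 CPM, and Bak1 from 0.561 to 8.34. Bad, which growth-factor signalling holds inactive by phosphorylation, ranged from 0 to 36.2 CPM and was at or below 3 counts in 2 libraries. Bid, Bad and Bak1 share 628, 524 and 437 exon bases with genes on the opposite strand (Bcl2l13, Gpr137 and Ggnbp1), so their levels are uncertain.

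**Figure D3:**
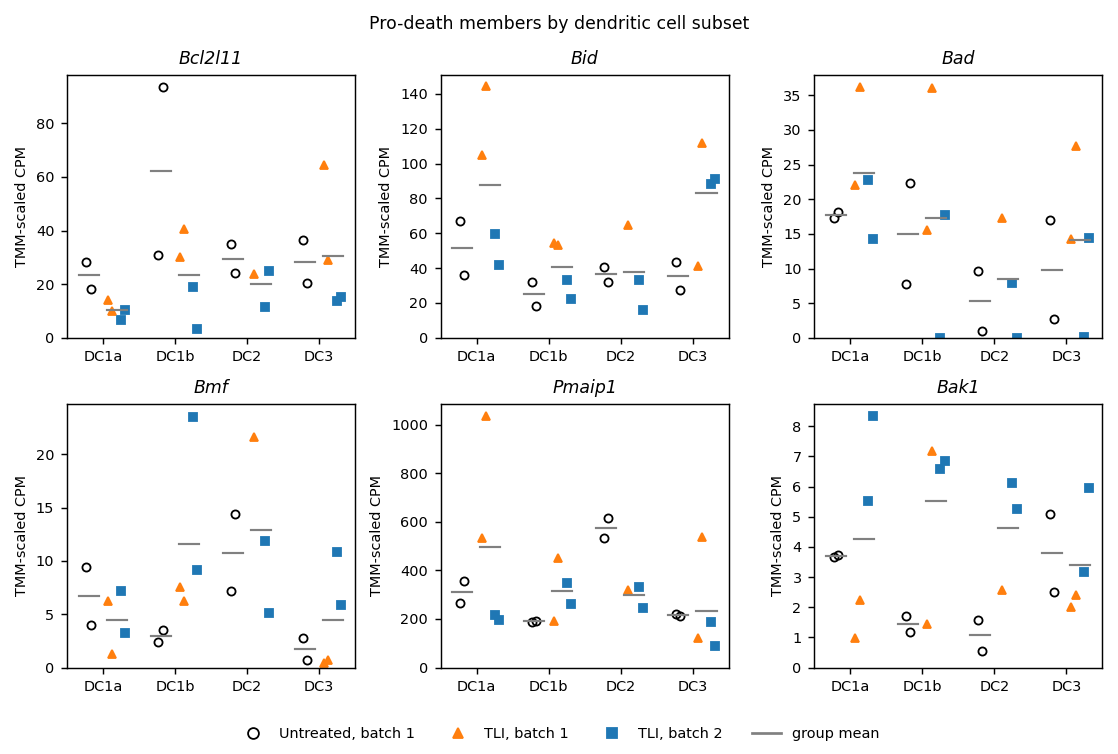
TMM-scaled CPM of the 6 pro-death members in each library, by subset, with symbols as in the plot of the pro-survival members. Pmaip1 lies at 89.7 CPM or more in all libraries, while Bak1 reaches at most 8.34 CPM and Bad lies at 0 in some libraries.

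The order of the subsets for each gene was uncertain throughout. Of 30 pairs of neighbours in the untreated order, none differed at an adjusted p under 0.05, and of 30 in the TLI order 1 did, namely DC2 against DC3 for Bcl2a1b (adjusted p = 0.00952). Over all 12 pairs of subsets, 7 of 120 differences passed, 5 of Bcl2a1b and 2 of Mcl1. In untreated mice the share of all genes called was 0.837% for DC1b against DC1a, 1.91% for DC2 against DC1a, 0.184% for DC3 against DC1a, 0.398% for DC2 against DC1b, 0.393% for DC3 against DC1b and 0.837% for DC3 against DC2. In TLI mice the same pairs gave 1.42%, 3.4%, 0.75%, 0.214%, 1.11% and 1.37%.

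The comparison of TLI with untreated mice asked whether the family's transcripts differ after treatment. No member passed in any subset (edgeR quasi-likelihood test with the batch term). The lowest adjusted p-values were 0.536 in DC1a, 0.354 in DC1b, 0.5 in DC2 and 0.356 in DC3. Few genes of any kind did so, since 0.0102% of all genes were called in DC1a, 0.413% in DC1b, 0.0612% in DC2 and 0.0255% in DC3. At an unadjusted p under 0.05 there were 0 members in DC1a, 1 in DC1b (Mcl1), 1 in DC2 (Bcl2l1) and 1 in DC3 (Bid), against 9.76%, 12.4%, 9.01% and 10.4% of all genes. DESeq2 called Bid in DC3 (adjusted p = 0.0285) and no other member in any subset.

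In DC1b, Mcl1 was 1.6-fold higher in TLI (95% confidence interval 1.05 to 2.45, adjusted p = 0.354), and the 4 TLI libraries at 265 to 588 CPM lay above the untreated 186 and 210. In DC3, Bid was 3.33-fold higher in TLI (1.45 to 7.65, adjusted p = 0.356), with 41.4 to 112 CPM against 27.2 and 43.6, and the groups overlapped in 1 TLI library. In DC2, Bcl2a1b was lower in all 3 TLI libraries (739 to 851 CPM) than in the untreated 1309 and 1403, with a log2 difference of -0.99 (SE 0.49, adjusted p = 0.577). With pool as a random block, fitted in limma voom, this difference was -1.36 and passed (adjusted p = 0.0421), as did 163 genes in all. The main edgeR test called 12. Test and block changed together here, the fitted correlation within pools was 0.00267, and voom without the block was not run. The median log2 difference of the 10 members was -0.25 in DC1a, 0.92 in DC1b, 0.07 in DC2 and 0.2 in DC3, beside 0.15, 0.09, 0.02 and -0.05 for all genes tested. The intervals of the 40 TLI differences are wide for the low genes, and a difference that did not pass is not shown to be absent.

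**Figure D4:**
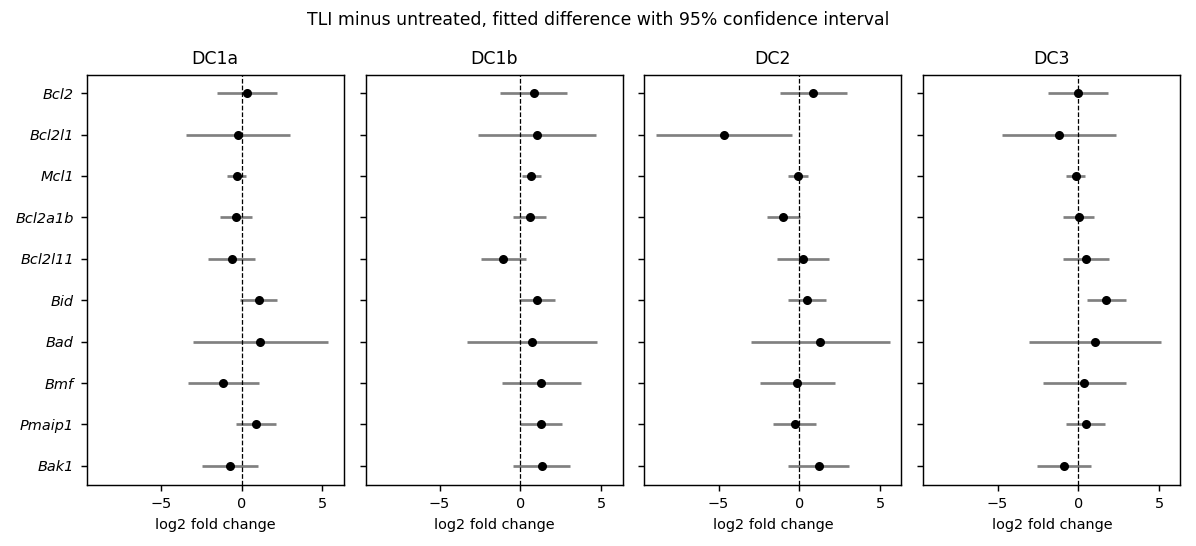
Fitted log2 difference of TLI minus untreated (points) with its 95% confidence interval (bars) for the 10 members in each subset. Intervals are narrowest for Mcl1 and Bcl2a1b, widest for Bad and Bcl2l1, and all but 3 span 0.

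TLI and untreated libraries did not overlap for 1 member in DC1a (Bcl2l11, lower in TLI), 2 in DC1b (Mcl1 and Bmf, higher), 4 in DC2 (Bcl2 and Bak1 higher, Bcl2a1b and Pmaip1 lower) and 0 in DC3. The shares of all genes that did not overlap were 13.2%, 19.9%, 25% and 13.5%. By direction they were 7.58% lower in DC1a, 8.29% higher in DC1b, and 10.7% higher and 14.3% lower in DC2. For Bcl2l11 in DC1a, the 4 TLI libraries held 6.5 to 14.2 CPM against 18.2 and 28.3, and the fitted log2 difference with the batch term was -0.6 (SE 0.69, adjusted p = 0.819). For Pmaip1 in DC2, the TLI libraries held 319, 334 and 244 CPM against 535 and 614, with a fitted difference of -0.28 (SE 0.64, adjusted p = 0.965). The test of whether the TLI difference varied among subsets called 0 members, with 0 at an unadjusted p under 0.05, against 0.0357% and 7.82% of all genes. In DESeq2 it called 0 members.

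Between the 2 TLI batches 17.4% of all genes were called and 0 of the 10 members, of which Mcl1 came nearest (batch 2 minus batch 1, log2 difference 0.48, SE 0.16, adjusted p = 0.0519). At an unadjusted p under 0.05 there were 5 members, Mcl1 and Bak1 higher and Bcl2l11, Bid and Pmaip1 lower in batch 2, against 31.8% of all genes. DESeq2 called 4 of these 5, all but Mcl1. When the 8 TLI libraries of batch 2 were set against the untreated ones, an alternative added after the values were seen, batch and treatment cannot be told apart. Bcl2a1b then passed in DC1b (log2 difference 1.08, adjusted p = 0.00248) and in DC2 (-0.7, adjusted p = 0.016), and Mcl1 in DC1b (1.32, adjusted p = 0.0482). Bcl2a1b also passed the test of a TLI difference that varies among subsets there. In that comparison 544 of 18666 genes were called in DC1b, 701 in DC2 and 40 for the varying difference, against 81, 12 and 7 with both batches.

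Of the 16 other family genes, 14 passed the filter. In TLI DC3 against TLI DC1a 2 of the 14 were lower and 0 higher, namely Bcl2a1a (-2.2, SE 0.31, adjusted p = 0.00128) and Bcl2a1d (-1.6, SE 0.26, adjusted p = 0.00376). In this pair 0.367% of all genes were called lower. Both are A1 copies, and 54.7% and 67.3% of their windows of 76 bases occurred in other genes, Bcl2a1b among them. Their calls are therefore not separate from that of Bcl2a1b. No other family gene passed in any of the 4 TLI comparisons with untreated mice. Of 20 caspase pathway genes, 2 differed among TLI subsets, against 3.22% of all genes, and 1 among untreated subsets, against 2.37%. Cycs, which encodes the cytochrome c that pores of BAK and BAX release, was lower in DC2 than in DC1a in untreated (-1.68, SE 0.32, adjusted p = 0.0101) and TLI mice (-1.12, SE 0.25, adjusted p = 0.0172). It was higher in DC3 than in DC2 in both as well (1.5, adjusted p = 0.0352 and 1.43, adjusted p = 0.00532). Birc2 (cIAP1), an E3 ligase that restrains caspase-8, was lower in TLI DC3 than in TLI DC1a (-1.53, SE 0.29, adjusted p = 0.0138). Of 20 caspase pathway genes, 0 passed between TLI and untreated mice in each subset. Birc2 came nearest, in DC3, where it was 4.04-fold lower in TLI (log2 difference -2.01, SE 0.35, adjusted p = 0.0513). Its differences in DC1a (-1.01, adjusted p = 0.402) and DC1b (-1.21, adjusted p = 0.17) had the same sign. In DC2 it did not reach an unadjusted p under 0.05.

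Of 10 targets of p53, the transcription factor that raises NOXA and p21 after DNA damage, 9 passed the filter. Between TLI and untreated mice 0 of 9 passed in each subset. Cdkn1a (p21) came nearest in DC1b, with 25.5 to 309 CPM in the 4 TLI libraries against 24.5 and 55.6 in the untreated ones (log2 difference 2.77, adjusted p = 0.136). It was itself lower in TLI batch 2 than in batch 1 (-1.96, SE 0.4, adjusted p = 0.00277), and the group means without the batch term were 149 and 40.0 CPM. It was lower in TLI DC3 than in TLI DC1b (-2.77, SE 0.56, adjusted p = 0.0196).

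As a description, the tested gene outside these lists whose log2 CPM ran most like each member over the 23 libraries was found by Pearson's r. These were B2m for Bcl2a1b (0.902), Klf4 for Mcl1 (0.888), Rasgrp2 for Bcl2 (0.836), Ffar4 for Bcl2l1 (0.797) and Spi1, which encodes PU.1, for Pmaip1 (0.865). They were Trmt112 for Bcl2l11 (0.812), Phf10 for Bid (0.802), 9530068E07Rik for Bad (0.888), Abcg1 for Bmf (0.79) and Pfdn2 for Bak1 (0.859). The points share pools, batch and depth, each gene is the highest of 19597 screened, and no p is given.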

How the data were processed

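By the labels DCs were sorted into the buffer of the cDNA reaction, while the study's methods name a lysis buffer and RNA purification. cDNA was made with a SMARTseq v4 UltraLow Input kit and libraries with a KAPA HyperPlus kit. The deposited values are estimated counts per gene that the authors made from 76-base paired reads with Trimmomatic, HISAT2 and StringTie on GRCm38. They were whole numbers, so rounding changed nothing, and 47310 of 47729 identifiers took a symbol from GENCODE M21. Whether counting used the strand is not given in the sources used here.

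The main test was the quasi-likelihood F-test of edgeR 4.0.16 in R 4.3.3, on 23 libraries with 8 groups and a batch term, TMM scaling, filterByExpr and Benjamini-Hochberg adjustment over 19597 genes, with a threshold of 0.05. SE was taken as the size of the log2 difference over the root of F. Total counts were 19256447 to 36997890 per library, and 3 counts, the floor of detection, equal 0.0862 to 0.147 CPM. Floors and intervals cover counting error or the spread between these libraries only, since cDNA was amplified without molecular identifiers. Pools are taken as separate sets of mice from their pool number. The pool number joins the subsets of the same mice within a treatment by the labels. Deviations of same-pool libraries from the values fitted by group and batch correlated at -0.162 to 0.0673 in TLI mice (21 pairs) and -0.00585 to 0.0159 in untreated mice (12 pairs). With 2 untreated libraries a subset the deviations mirror each other. The untreated correlations are therefore the same in both pools, and the 12 pairs are not separate. Treatment is constant within a pool.

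Alternatives were DESeq2 1.42.0, its size factors in edgeR, no filter, no batch term, pool as a fixed or random block (limma 3.58.1), each treatment or batch 1 alone, the Bcl2a1 copies summed and each library left out. On simulated counts of 18884 genes, the test of untreated subsets gave 0 false calls. It recovered 2 of 50 genes changed 4-fold, 22 of 50 changed 8-fold and 33 of 50 changed 32-fold. For TLI against untreated DC1a it recovered 1, 17 and 29 of 50 at these folds. No batch or pool effect was simulated. The genes and lists were chosen with earlier results of these data known. All 10 members are described, from each wider list the genes past the threshold with the smallest p are named, and for each member the 1 gene outside the lists with the highest r. Cdkn1a in DC1b, and Birc2 between TLI and untreated mice, were named after their values were seen. The figures were drawn with matplotlib 3.10.9.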

Additional observations from a re-analysis of the deposited data

Results flagged for a closer look

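In 30 groups of 4 libraries examined (10 genes in TLI DC1a, DC1b and DC3), 3 held a library far from the others by Dixon's criterion, which chance meets in about 5% of groups. Bcl2a1b was at 319 CPM in TLI DC3 pool 1 against 114 to 126 in the other TLI DC3 libraries. Bmf was at 23.5 CPM in TLI DC1b pool 3 against 6.22 to 9.18 in the others. Bak1 was at 1.45 CPM in TLI DC1b pool 1 against 6.59 to 7.2 in the others. Their sources were not tested.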

How the results depend on the processing

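The 7 called differences of Bcl2a1b and Mcl1 between subsets kept their sign in all 32 refits of each. Of the counts of members called, DESeq2 gave 2 for the untreated subsets (Mcl1 added), 5 for the TLI subsets (Bcl2, Bcl2l1 and Bid added), 4 for the batches and 1 for TLI in DC3 (Bid). With its size factors in edgeR the batches gave 3. The untreated libraries alone gave 2 (Pmaip1 added). For the TLI subsets the count was 1 with the TLI libraries alone, 1 with no batch term and 0 in batch 1 alone. TLI batch 2 against untreated, added after seeing the data, gave 1 for the TLI subsets, 1 for a TLI difference that varies among subsets, 2 for DC1b and 1 for DC2. Pool as a random replicate block, which also changed the test to limma voom, gave 1 in DC2. Pool as a fixed replicate block changed 1 other call, that of Bcl2a1b between untreated DC3 and DC1a. Leaving out 1 library gave 0 to 1 for the untreated subsets, 1 to 2 for the TLI subsets and 0 to 3 for the batches. The causes were not tested. Of the 40 TLI differences, 17 kept their sign in all refits.

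Over all genes, edgeR called 464 for the untreated and 632 for the TLI subsets and DESeq2 1714 and 1972. Between TLI and untreated mice edgeR called 2, 81, 12 and 5 in DC1a, DC1b, DC2 and DC3 and DESeq2 748, 1263, 892 and 730. For the varying TLI difference the counts were 7 and 392, and between batches 3413 and 5926. With 2 untreated libraries a subset, a call that was not made does not show that levels were equal.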
